A study of Danio rerio with 9 samples.

Results

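Zebrafish (Danio rerio) embryos with 1 mutant copy of npc2 were compared with wild-type embryos across all genes, using polyadenylated RNA of whole embryos at 30 hours post fertilisation. The comparison takes 6 of the 9 libraries of the study, chosen by genotype label alone: 3 heterozygous and 3 wild-type pools. Each pool held 30 embryos. Heterozygous embryos are written Mnpc2+/m in the labels and had mutant mothers. The remaining 3 libraries came from homozygous embryos, MZnpc2m/m, which were brothers and sisters of the heterozygous embryos and were told apart from them by phenotype. The npc2+/+ embryos came from other crosses, whose parents were wild-type siblings of the mutants' parents. The labels name no treatment. Heterozygous and wild-type pools therefore differed together in embryonic genotype, in the mother's genotype, in parents and in clutch, and the parts of these cannot be told apart. The labels describe neither the mutation nor which clutch or day a pool came from, so p-values measure the spread between pools only.

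NPC2 is a small soluble protein of the lysosome that binds cholesterol released from lipoproteins and passes it to NPC1, a membrane protein, for export. When export fails, cholesterol stays in the lysosome, the endoplasmic reticulum senses low sterol, and the SREBP transcription factors switch on genes of cholesterol synthesis and of lipoprotein uptake. In people, loss of both copies of either gene causes Niemann-Pick disease type C, while carriers of 1 copy are usually healthy.

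Total counts were 55144480 to 65070813 in heterozygous and 38564405 to 64100420 in wild-type libraries. Levels are counts per 1000000 (CPM), and a count of 3 corresponds to 0.0461 to 0.0778 CPM in these 6 libraries. The first principal component of log2 CPM over the 6 libraries held 45.99% of the variance and separated the genotypes, with scores of -39.4 to -31.96 in heterozygous and 31.1 to 42.9 in wild-type libraries. The second held 16.4% and set wild-type replicate 1, the library with the fewest counts, at -39.2 against 17.8 and 28.0 for the other wild-type libraries. Genes encoded by the mitochondrial genome took 2.31% to 2.59% of counts in heterozygous and 2.91% to 3.15% in wild-type libraries. In a bulk sample, fewer cells of a type and less RNA per cell cannot be told apart. Symbols are those of the names table given with the data, which often writes fish genes in capitals, and a gene ID follows a symbol that several IDs share.

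The more abundant of 2 gene IDs that carry the symbol NPC2 was at a lower level in every heterozygous pool, and the labels do not say which ID holds the mutation. NPC2 (ENSDARG00000090912) was at 144, 146 and 142 CPM in heterozygous replicates 1 to 3 and at 264, 256 and 278 CPM in wild-type replicates 1 to 3, with library sizes scaled by trimmed means of M values, TMM, here and throughout. Values after ± are standard deviations over 3 pools for CPM and standard errors for log2 fold changes. The 2 genotypes did not overlap, and the heterozygous level was 0.541 times the wild-type level (log2 fold change -0.89 ± 0.09 SE, edgeR quasi-likelihood adjusted p = 6.96e-05). The other ID, NPC2 (ENSDARG00000096979), was at 1.41 CPM in heterozygous and 1.96 CPM in wild-type embryos and did not pass the test (adjusted p = 0.18). NPC1, the partner that accepts cholesterol from NPC2, was at 227, 234 and 217 CPM in heterozygous and 202, 195 and 195 CPM in wild-type libraries, a rise of 0.20 ± 0.04 on the log2 scale (adjusted p = 0.00287).

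Many genes differed, most of them slightly. Of 20375 genes tested, 6079 were called at an edgeR adjusted p under 0.05, which is 29.8%, with 3154 higher (15.5%) and 2925 lower (14.4%) in heterozygous embryos. Without wild-type replicate 1 the count was 4997. Among called genes, 75.4% changed by less than 1.5-fold, and 285 rose and 309 fell by 2-fold or more. The 3 libraries of one genotype all lay above the 3 of the other for 42.7% of all genes tested, so a lack of overlap is common here. The median log2 fold change over all genes was 0.00. Counts of named gene lists below, in heterozygous against wild-type embryos, are to be read against 15.5% higher and 14.4% lower. The lists were chosen with earlier results of these data known, so these shares are a guide and not a test.

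**Figure D1:**
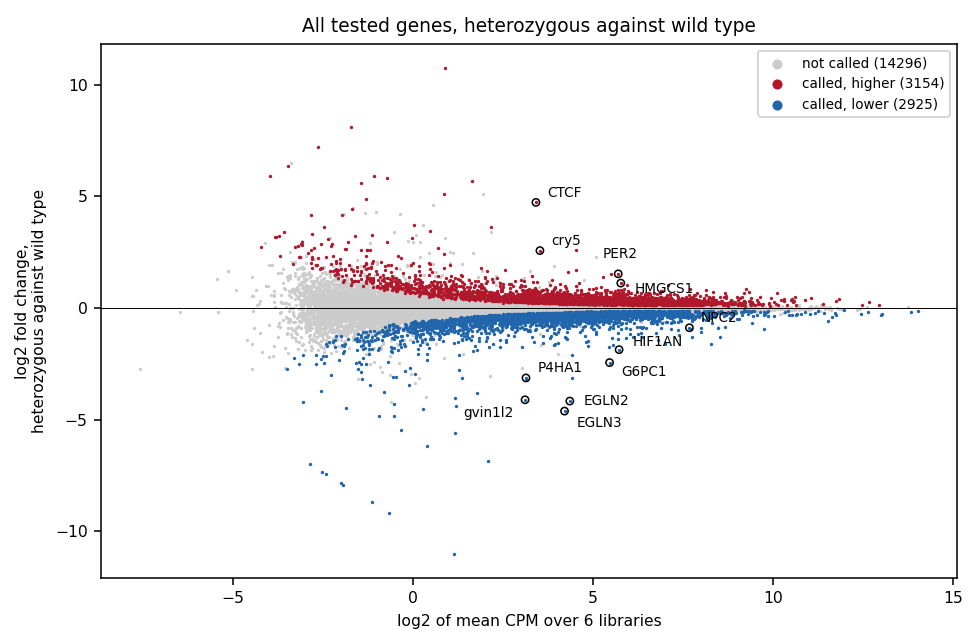
Each point is one of 20375 tested genes, with log2 of its mean CPM over the 6 libraries on the x axis and the log2 fold change of heterozygous against wild-type embryos on the y axis. The 3154 genes called higher are red, the 2925 called lower are blue, and circles mark genes named in the text, with EGLN3, EGLN2 and gvin1l2 among the lowest and CTCF and cry5 among the highest of those at 5 CPM or more.

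The largest rises, among called genes at 5 CPM or more with no overlap, were led by a chromatin gene and by DNA repair and clock genes. CTCF, which encodes an insulator-binding protein of chromatin, was at 12.9, 16.2 and 32.7 CPM in heterozygous and at 0.777, 0.955 and 0.569 CPM in wild-type libraries (4.72 ± 0.47, adjusted p = 5.54e-04). Its heterozygous libraries varied widely and its wild-type libraries were all under 1 CPM. Homozygous embryos were at 11.1 ± 0.286 CPM. The photolyase genes cry5 and cry-dash, the clock genes PER2 and CRY1 (ENSDARG00000045768), and lonrf1 also stood among the 15 largest rises and are described with the light-induced genes. NENF, encoding the secreted factor neudesin, rose from 2.698 ± 1.43 to 8.96 ± 1.76 CPM (1.70 ± 0.35, adjusted p = 0.0123). Other members were SLC16A12 (ENSDARG00000089885), a solute carrier, at 1.41 ± 0.10, the keratin gene krt18b at 1.26 ± 0.14, TMEM138 at 1.23 ± 0.21, wdr76 at 1.185 ± 0.11, ABHD4 at 1.17 ± 0.10 and the small heat shock gene hspb9 at 1.12 ± 0.09. GABPA, an ETS transcription factor gene, was at 7.75, 8.48 and 17.4 CPM against 5.13, 4.59 and 4.48 in wild type. Its rise (1.246 ± 0.36, adjusted p = 0.0405) was 0.77 ± 0.15 without heterozygous replicate 3 (adjusted p = 0.00170), with the other 2 heterozygous libraries above every wild-type library, and the call was lost in 8 of the alternative settings (adjusted p 0.0559 to 0.114).

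The largest falls were led by oxygen-dependent hydroxylases. EGLN3 was at 1.64, 1.42 and 1.27 CPM in heterozygous and 44.6, 34.7 and 27.5 CPM in wild-type libraries (-4.62 ± 0.21, adjusted p = 4.77e-07). EGLN2, P4HA1, HIF1AN, P4HA2, G6PC1, TXNIP, IRS2 and ppp1r15a were also among the 15 largest falls and are described with their pathways. The interferon-induced GTPase family member gvin1l2, whose reads may be shared with near-identical copies, fell from 16.4 ± 3.78 to 0.923 ± 0.849 CPM (-4.11 ± 0.55). The spindle gene hmmr was at 0.896, 1.72 and 2.68 CPM against 16.2, 12.8 and 18.8 (-3.19 ± 0.78, adjusted p = 0.0245), a call lost in 5 settings (0.0520 to 0.0822). Further down the list stood the linker histone gene histh1l1, from 472 to 152 CPM, the LC3 family gene map1lc3cl (-1.77 ± 0.11), YPEL3 (-1.67 ± 0.20) and DHRS13 (ENSDARG00000098746) (-1.63 ± 0.11). In 13 of these 15 falls, wild-type replicate 1 was the highest wild-type library, against 6 of the 15 rises. Without that library 14 of the 15 falls and 14 of the 15 rises were still called.

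**Figure D2:**
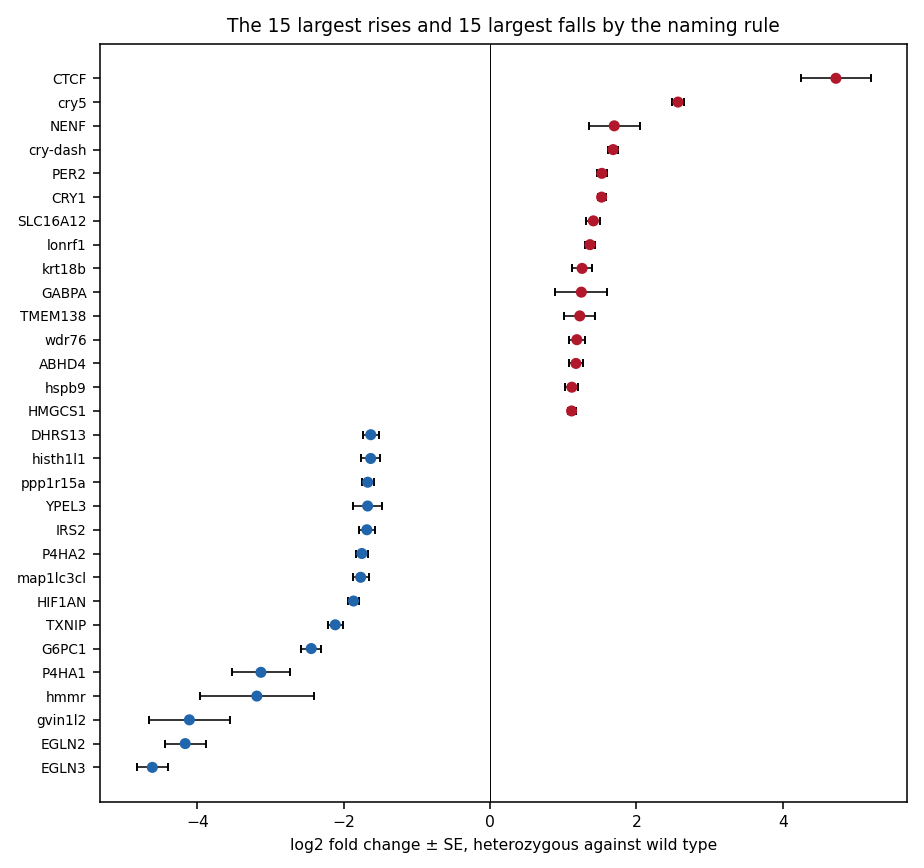
The log2 fold change of heterozygous against wild-type embryos (x axis, points, with bars of 1 standard error) is shown for the 15 largest rises in red and the 15 largest falls in blue. Changes run from CTCF at the top to EGLN3 at the bottom, and the bars of CTCF, NENF, GABPA, hmmr and gvin1l2 are wider than those of most others.

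Most cholesterol synthesis genes rose. Of 21 measured genes of the pathway, 16 rose, 0 fell and 5 did not pass, with a median log2 fold change of 0.67. At the start of the pathway, HMGCS1, an early enzyme gene, was at 73.2, 75.3 and 76.0 CPM in heterozygous and 33.9, 33.0 and 36.9 CPM in wild-type libraries, 2.16-fold higher. Every heterozygous library lay above every wild-type library.

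In the middle of the pathway, the mevalonate and isoprenoid genes MVD and FDPS rose by 0.76 ± 0.07 and 0.47 ± 0.04, and FDFT1, which commits the route to sterols, by 0.76 ± 0.08. Squalene epoxidase, SQLE (ENSDARG00000079946), was at 21.5, 19.99 and 18.97 CPM in heterozygous and 9.84, 10.5 and 11.1 CPM in wild-type libraries (0.94 ± 0.06). These enzymes act before the first sterol ring is formed. Among enzymes that modify that ring, MSMO1 rose from 0.914 to 2.11 CPM (1.23 ± 0.14) and TM7SF2 from 0.177 to 0.735 CPM (2.02 ± 0.30). NSDHL rose by 0.98 ± 0.09, and SC5D from 3.83 ± 0.102 to 7.38 ± 0.107 CPM (0.95 ± 0.07). DHCR7, which acts late in the pathway, was at -0.15 ± 0.06 (adjusted p = 0.058) and did not pass. In homozygous embryos HMGCS1 was at 802 CPM, SC5D at 76.9, DHCR7 at 193 against 26.0 in wild type, and the median log2 fold change of the list was 3.83. The 2 comparisons share the wild-type libraries.

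**Figure D3:**
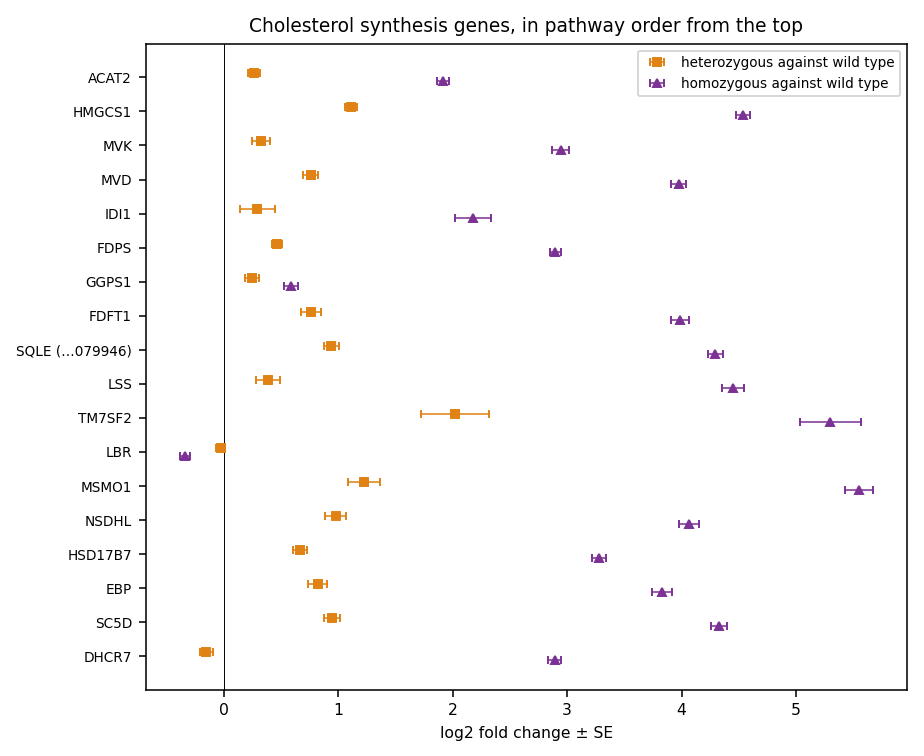
Log2 fold changes against wild type (x axis, with bars of 1 standard error) are shown for 18 of the 21 cholesterol synthesis genes in pathway order, orange squares for heterozygous and purple triangles for homozygous embryos. Heterozygous values run from -0.15 for DHCR7 to 2.02 for TM7SF2, and most homozygous values lie to the right of them.

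Sterol regulators and genes of lipoprotein uptake were partly higher, with 8 of 17 measured that rose and 0 that fell. The low-density lipoprotein receptor gene ldlrb was at 90.1, 86.1 and 80.7 CPM in heterozygous and 58.0, 60.8 and 55.6 CPM in wild-type libraries (0.56 ± 0.06, adjusted p = 1.42e-06). SCAP, the sterol sensor that escorts SREBP, rose by 0.53 ± 0.08, and STARD4, a cytosolic sterol carrier, by 0.37 ± 0.08. The gene of the transcription factor itself, srebf2, was at 115 and 116 CPM (adjusted p = 0.874) and at 557 CPM in homozygous embryos. Genes of fatty acid synthesis and desaturation were higher for 9 of 22 and lower for 1. Fatty acid synthase, FASN, rose from 24.3 ± 1.37 to 34.7 ± 2.25 CPM (0.51 ± 0.06), ATP citrate lyase, ACLY (ENSDARG00000099079), by 0.30 ± 0.04, and GPAM, the first enzyme of glycerolipid synthesis, by 0.74 ± 0.09. GPAM was at 13.0 CPM in homozygous against 14.6 in wild-type embryos, so that its heterozygous level of 24.4 CPM was the highest of the 3 genotypes (heterozygous against homozygous 0.92 ± 0.09, adjusted p = 2.17e-07). The single fall was LPIN1, a phosphatidate phosphatase gene, at -1.10 ± 0.15.

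Genes of cholesterol export, esterification and transport changed in both directions, with 8 of 28 that rose (5 without heterozygous replicate 2) and 2 that fell. The efflux pump gene ABCA1 was at 88.2, 86.2 and 78.4 CPM in heterozygous and 68.0, 69.9 and 62.9 CPM in wild-type libraries (0.33 ± 0.08, adjusted p = 0.00935). In homozygous embryos ABCA1 was at 7.66 ± 1.35 CPM, far below heterozygous embryos (heterozygous against homozygous 3.48 ± 0.10, adjusted p = 1.16e-11). Its more abundant paralogue abca1b rose from 388 CPM in wild-type to 447 CPM in heterozygous embryos (0.20 ± 0.04). In homozygous embryos abca1b was at 503 CPM, above both. SOAT1, which esterifies cholesterol for storage, was higher in heterozygous embryos by 0.40 ± 0.11 (adjusted p = 0.0122, and 0.0692 without heterozygous replicate 2). CH25H, which makes the signalling sterol 25-hydroxycholesterol, fell by 1.48 on the log2 scale, from 1.59 to 0.565 CPM, and OSBPL5, an oxysterol-binding protein gene, was at -0.54 ± 0.06.

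Lysosome genes rose more often than they fell. Of 60 measured, 16 rose and 8 fell (5 without heterozygous replicate 3), with a median of 0.01. Among those that rose, the cathepsin gene ctsla was at 1139, 1152 and 1161 CPM in heterozygous and 803, 825 and 887 CPM in wild-type libraries (0.46 ± 0.04), and CTSC rose by 0.69 ± 0.09, ctss2.1 by 0.60 ± 0.07, the membrane protein gene LAMP2 by 0.46 ± 0.05 and the sphingolipid activator gene PSAP by 0.35 ± 0.04. Progranulin, grnb, was at -0.47 ± 0.05 and the sulfatase gene SGSH at -0.55 ± 0.08, and both fell, as did NPC2 itself, which is on the list. The cathepsin gene CTSD and the sphingomyelinase gene SMPD1 were at -0.03 and -0.01 and were not called. Of 16 genes of the proton pump that acidifies the lysosome, 2 rose and 0 fell. In homozygous embryos 32 lysosome genes rose against wild type and 8 fell, where 23.5% and 21.1% of all genes did, 44.5% together.

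Autophagy genes moved mostly the other way, with 6 of 39 that rose and 13 that fell (median -0.15). The cargo receptor gene SQSTM1 was at 62.7, 67.5 and 67.2 CPM in heterozygous and 32.7, 38.6 and 40.2 CPM in wild-type libraries (0.82 ± 0.07, adjusted p = 3.97e-07). Homozygous embryos were higher still, at 123 CPM. TFE3, a transcription factor of lysosome genes, rose by 0.38 ± 0.08, while its relative TFEB was at -0.15 (adjusted p = 0.376). Members that fell included rragcb, a Rag GTPase gene of the nutrient-sensing complex on the lysosome, at -0.66 ± 0.09, ATG2A at -0.55 ± 0.10, ATG14 at -0.30 ± 0.06 and the LC3-like gene GABARAPL2 at -0.27 ± 0.07.

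The photolyase genes cry5 and cry-dash and several other light-induced genes were higher. Zebrafish tissues sense light directly, and light induces DNA repair enzymes and the clock repressors per2 and cry1a in them. Of 22 measured genes, 12 rose and 2 fell, with a median of 0.45. The photolyase gene cry5 was at 18.9, 19.8 and 20.4 CPM in heterozygous and 3.57, 3.27 and 3.16 CPM in wild-type libraries, 5.93-fold higher. Another photolyase gene, cry-dash, was at 32.3, 36.1 and 36.4 against 11.4, 10.8 and 10.6 CPM, 3.21-fold higher. Libraries of a genotype lay close together for both genes and the genotypes were far apart. A lack of overlap was a condition of naming both among the largest rises. PER2 was at 83.1, 76.3 and 72.5 CPM in heterozygous and 27.6, 28.5 and 24.4 CPM in wild-type libraries, and CRY1 (ENSDARG00000045768) at 65.5, 68.9 and 66.4 against 23.9, 23.2 and 22.9 CPM, 2.88-fold and 2.87-fold higher in that order. Also higher were lonrf1, from 21.8 to 56.0 CPM (1.36 ± 0.07), the haem oxygenase gene HMOX1 (0.82 ± 0.07) and the DNA glycosylase gene NEIL1 (0.78 ± 0.12). Against homozygous embryos, tested in the same fit, heterozygous embryos were higher for PER2 by 0.45 ± 0.06 (adjusted p = 1.99e-05) and for cry5 by 0.60 ± 0.08 (adjusted p = 6.87e-06), while cry-dash was at -0.07 ± 0.06 (adjusted p = 0.356). The sources used here give neither the time of day nor the light at which pools were collected.

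Among 34 core clock genes, which overlap the light list, 9 rose and 5 fell. Of the period repressors, PER3 was at 84.1, 87.8 and 75.5 CPM against 43.9, 42.4 and 34.7 in wild type (1.03 ± 0.09) and PER1 (ENSDARG00000012499) rose by 0.82 ± 0.07. The cryptochromes split, with cry3b at 0.69 ± 0.06 and cry4 at -0.56 ± 0.05. The repressor BHLHE40 fell from 161 ± 10.3 to 123 ± 3.53 CPM (-0.38 ± 0.06), and CLOCK (ENSDARG00000003631), an activator, rose by 0.26 ± 0.06. NR1D1, the nuclear receptor of the second clock loop, was under 1 CPM in both genotypes (0.90, adjusted p = 0.114). Of 21 pineal and phototransduction genes, 2 rose and 1 fell.

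**Figure D4:**
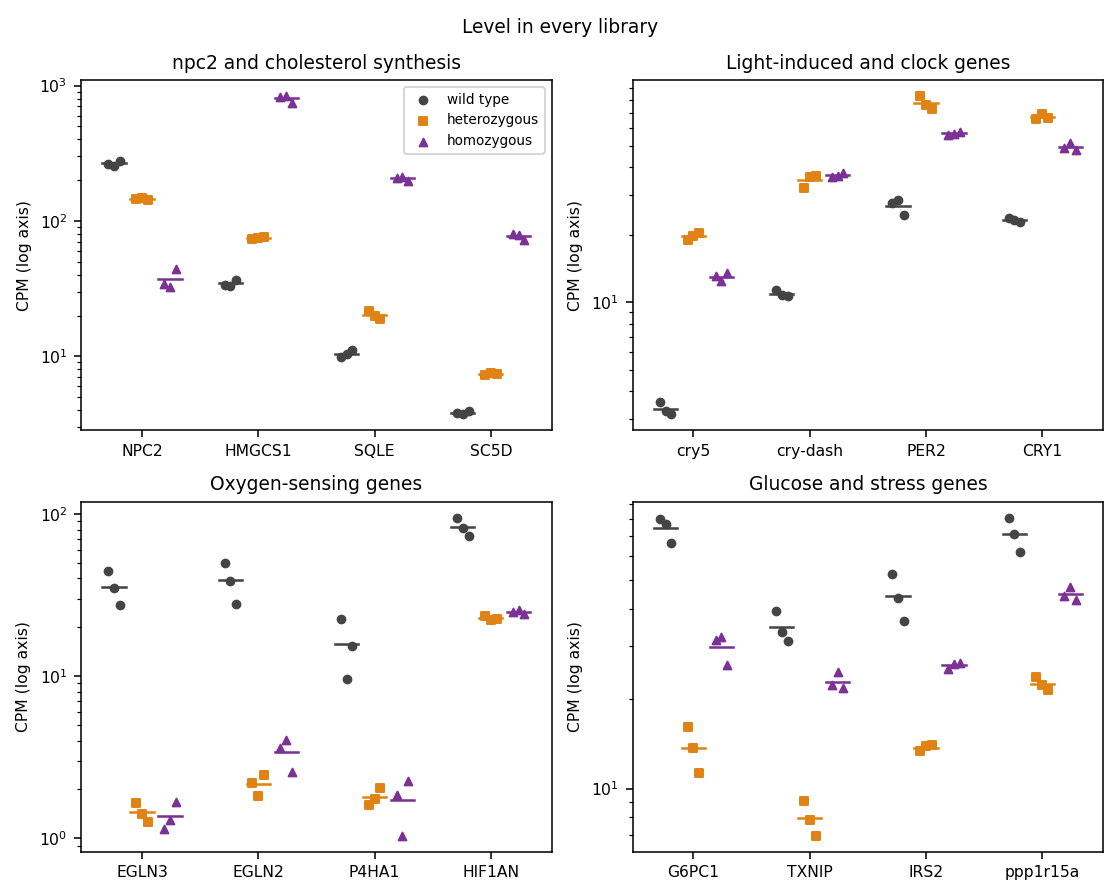
Levels in CPM on log axes are shown for 16 genes in every library, with wild type as grey circles, heterozygous as orange squares and homozygous as purple triangles, and a line at each group's mean. Heterozygous libraries lie between the other genotypes for NPC2 and the cholesterol synthesis genes, above both for cry5, PER2 and CRY1, beside homozygous libraries for EGLN3, EGLN2, P4HA1 and HIF1AN, and below both for G6PC1, TXNIP, IRS2 and ppp1r15a.

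Genes of the hypoxia-inducible factor (HIF) pathway and of glycolysis were lower. Of 53 measured, 28 fell and 4 rose, with a median of -0.27. In cells with enough oxygen, EGLN enzymes hydroxylate HIF on prolines, which lets the VHL protein mark it for breakdown, and HIF1AN hydroxylates it on an asparagine, which keeps coactivators away. The genes of these oxygen sensors were lower by large folds. EGLN2 was at 2.19, 1.82 and 2.46 CPM in heterozygous and 49.98, 38.6 and 28.0 CPM in wild-type libraries (-4.17 ± 0.28), and HIF1AN was at 23.5, 22.3 and 22.5 against 94.9, 81.3 and 73.1 CPM (-1.87 ± 0.08, adjusted p = 2.27e-10). The prolyl hydroxylase gene EGLN1 (ENSDARG00000004632) fell from 25.2 to 13.5 CPM (-0.90 ± 0.08) and vhl from 12.2 to 5.96 CPM (-1.03 ± 0.11). Wild-type replicate 1 was the highest library for each of these 4 genes, and the lowest wild-type library still lay above every heterozygous library. For EGLN2 and HIF1AN that lack of overlap was a condition of the naming rule and adds no support. The same held for P4HA2, a collagen prolyl hydroxylase, at 18.999, 19.4 and 21.0 against 74.1, 63.1 and 63.0 CPM (-1.75 ± 0.08). For P4HA1 the wild-type libraries were at 22.5, 9.62 and 15.4 CPM and the heterozygous libraries at 1.61, 1.76 and 2.03 CPM (-3.13 ± 0.40). JMJD6, another oxygen-dependent hydroxylase gene, was at -0.89 ± 0.09 and fell too. Homozygous embryos were near heterozygous ones for EGLN3, EGLN2, HIF1AN and P4HA2, at 1.37, 3.39, 24.8 and 18.3 CPM, and none of these 4 passed the test between the 2 mutant genotypes (adjusted p 0.119 to 0.771).

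Within glycolysis, LDHA, which makes lactate, was at 141, 146 and 134 CPM in heterozygous and 206, 208 and 208 CPM in wild-type libraries (-0.57 ± 0.05). The pyruvate kinase gene PKM (ENSDARG00000099860) fell by 0.69 on the log2 scale, the glucose transporter gene SLC2A1 (ENSDARG00000007412) was at -0.79 ± 0.09, and PFKFB3, which makes an activator of glycolysis, at -1.38 ± 0.11. EPAS1 (ENSDARG00000008697), which encodes a HIF alpha subunit, was among the few that rose (0.44 ± 0.05). Common HIF targets of mammals such as VEGFA (ENSDARG00000103542), BNIP3 and ca9 were at -0.13, -0.38 and 0.22 and were not called. IGFBP1, an insulin-like growth factor binding protein gene induced by hypoxia and fasting, fell from 21.7 ± 3.11 to 9.51 ± 1.2505 CPM but was at 51.5 ± 4.79 CPM in homozygous embryos. Muscle is rich in glycolytic enzymes, and the summed level of 47 skeletal muscle genes was 84221 to 86753 CPM in heterozygous and 91078 to 97154 CPM in wild-type libraries, with 22 that fell and 5 that rose. Their part in the glycolysis result was not tested.

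Genes of glucose release and storage fell in the largest share of the 57 lists, 12 of 19, with 1 that rose and a median of -0.37. The catalytic subunit of glucose-6-phosphatase, G6PC1 (ENSDARG00000013721), which frees glucose from the cell, was at 16.03, 13.6 and 11.3 CPM in heterozygous and 79.8, 77.0 and 66.8 CPM in wild-type libraries (-2.44 ± 0.14). PCK1, the entry enzyme of gluconeogenesis, was at 29.9, 29.4 and 26.5 against 86.8, 74.5 and 64.9 CPM (-1.395 ± 0.16). Both genes are restrained by insulin and raised by fasting in mammals. TXNIP (ENSDARG00000070000), which limits glucose uptake, was at 9.08, 7.87 and 6.95 against 39.3, 33.6 and 31.2 CPM (-2.12 ± 0.10), and its more abundant paralogue TXNIP (ENSDARG00000036107) at -0.86 ± 0.12. The insulin receptor substrate gene IRS2 (ENSDARG00000037099) fell from 44.2 ± 8.04 to 13.7 ± 0.348 CPM (-1.68 ± 0.11). These genes were lower in heterozygous than in homozygous embryos too, with G6PC1 (ENSDARG00000013721) at -1.13 ± 0.14 (adjusted p = 1.81e-04), TXNIP (ENSDARG00000070000) at -1.52 ± 0.10 and IRS2 (ENSDARG00000037099) at -0.92 ± 0.11 for heterozygous against homozygous. The muscle glycogen synthase gene GYS1 fell by 0.55 on the log2 scale. The glucocorticoid receptor gene NR3C1, whose product activates PCK1 in mammals, fell from 5.93 ± 0.416 to 2.44 ± 0.287 CPM (-1.28 ± 0.15). Genes of the glucocorticoid response list, which holds NR3C1 and PCK1, were split. In it 3 rose and 4 fell, where 15.5% and 14.4% of all genes did. FKBP5 rose by 0.83 ± 0.15, sgk1 and CEBPD were at -0.48 ± 0.12 and -0.45 ± 0.13 and fell, and tsc22d3 was at -0.14 and was not called. PER1 (ENSDARG00000012499) and HSD11B2 rose too. The other measured members, KLF9, STAR, PER1 (ENSDARG00000056885), POMC, hsd20b2 and SOCS1, were not called.

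Inflammation genes were lower than in wild type, in the direction opposite to homozygous embryos. Of 46 measured, 14 fell and 1 rose in heterozygous embryos (median -0.44), while 35 rose and 1 fell in homozygous embryos (median 1.48). Compared directly, 39 were lower and 1 higher in heterozygous than in homozygous embryos, where 20.4% and 19.4% of all genes were, 39.8% together. The complement gene c4b was at 16.5, 13.0 and 16.8 CPM in heterozygous and 36.8, 46.7 and 45.7 CPM in wild-type libraries (-1.49 ± 0.16, adjusted p = 2.91e-04). The AP-1 subunit gene JUN was at 103, 98.0 and 101 against 128, 128 and 132 CPM (-0.37 ± 0.04), and at 227 CPM in homozygous embryos. Neither gene overlapped between heterozygous and wild-type libraries. The prostaglandin synthase gene PTGS2 (ENSDARG00000004539) was at -0.49 ± 0.07, and irg1l, an immune metabolic enzyme gene, fell from 5.62 to 3.36 CPM and was at 157 CPM in homozygous embryos. STAT3 and SOCS3 (ENSDARG00000026611) were at -0.08 and -0.17 and were not called. Of 28 myeloid markers, 3 rose and 3 fell, and their sum was 1429 to 1481 CPM in heterozygous and 1459.99 to 1618 CPM in wild-type libraries. Most of that sum came from the apolipoprotein gene apoc1, at a mean of 1307 CPM in heterozygous and 1383 CPM in wild-type embryos. The sum therefore mainly follows apoc1 and is a weak gauge of myeloid cells. The part of myeloid cells in the inflammation result was not tested.

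Immediate early and AP-1 genes, which cells switch on within minutes of a stimulus, fell for 14 of 31 and rose for 2. CCN1, a matrix signalling gene, was at 21.96, 23.1 and 20.7 CPM in heterozygous and 43.9, 38.0 and 36.2 CPM in wild-type libraries (-0.84 ± 0.07). The phosphatase gene DUSP1 was at -0.37 ± 0.05, egr1 at -1.05 ± 0.26 (adjusted p = 0.022, and 0.0517 to 0.0690 without heterozygous replicate 1 or without any one wild-type library) and the activity-induced gene NPAS4 (ENSDARG00000055752) at -1.83 ± 0.38. ATF3 was at -0.63 (adjusted p = 0.0979) and did not pass. The list shares JUN and JUNB genes with the inflammation list.

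Genes of the unfolded protein and amino acid stress responses fell for 17 of 40 and rose for 4. The phosphatase subunit gene ppp1r15a, which restarts translation after stress, was at 23.6, 22.2 and 21.4 CPM in heterozygous and 81.0, 71.4 and 62.1 CPM in wild-type libraries (-1.67 ± 0.08). DDIT4, a stress-induced inhibitor of mTOR, was at 51.8, 46.6 and 43.9 against 130.00, 115 and 107 CPM (-1.31 ± 0.08). Both were far apart between the genotypes, and for ppp1r15a a lack of overlap was a condition of the naming rule. Chaperones of the endoplasmic reticulum were lower as well, with HSPA5 at -0.66 ± 0.07, HSP90B1 at -0.84 ± 0.09, CALR at -0.65 ± 0.06 and PDIA3 at -0.52 ± 0.06. The transcription factor genes atf4a and XBP1 were at -0.10 and -0.02 and were not called. Heat shock and chaperone genes, which include mitochondrial and collagen chaperones and heat shock factors, split, with 10 of 28 that rose and 6 that fell. HSP90AA1, an Hsp90 chaperone gene, fell from 109 ± 5.62 to 50.9 ± 2.90 CPM (-1.10 ± 0.11) and the collagen chaperone gene SERPINH1 (ENSDARG00000019949) from 351 ± 43.0 to 164 ± 23.6 CPM (-1.10 ± 0.12), while hspb9 and HSF2 rose by 1.12 ± 0.09 and 0.52 ± 0.06.

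Proteasome genes were higher by a small fold. Of 37 measured, 25 rose and 0 fell, with a median of 0.25. The lid subunit gene PSMD7 was at 168, 169 and 161 CPM in heterozygous and 116, 118 and 127 CPM in wild-type libraries (0.47 ± 0.05), and PSMD12 was at 204, 201 and 204 against 154, 154 and 161 CPM (0.38 ± 0.04). The core subunit gene PSMA3 rose by 0.37 ± 0.04 and the base ATPase gene PSMC3 by 0.37 ± 0.04. Homozygous embryos did not share the rise: against wild type 2 rose and 5 fell, where 23.5% and 21.1% of all genes did. In heterozygous against homozygous embryos 28 were higher and 1 lower, where 19.4% and 20.4% of all genes were. PSMD12, for instance, was at 141 CPM in homozygous embryos (heterozygous against homozygous 0.52 ± 0.04, adjusted p = 3.43e-08).

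Genes of RNA processing and ribosome assembly rose for 14 of 21 and fell for 1, with a median of 0.31. The nucleolar gene ncl was at 1292, 1364 and 1440.4 CPM in heterozygous and 861, 844 and 876 CPM in wild-type libraries (0.67 ± 0.06). The nucleolar genes npm1a, DKC1, FBL and NOP56 rose by 0.62 ± 0.07, 0.50 ± 0.06, 0.42 ± 0.06 and 0.41 ± 0.05. Of 73 ribosomal protein genes, by contrast, 0 rose and 1 fell, the fall being RPLP1 at -0.16 ± 0.05, a call lost in 5 settings (adjusted p 0.0512 to 0.147). Cell cycle and replication genes rose for 15 of 48 and fell for 5. The sliding clamp gene PCNA was at 1076, 1167 and 1175 CPM in heterozygous and 969, 912 and 923 CPM in wild-type libraries (0.29 ± 0.05), and POLD1, RRM1 and CCNB1 rose by 0.56 ± 0.06, 0.32 ± 0.04 and 0.31 ± 0.05. The cyclin gene CCNE2 and the checkpoint kinase gene CHEK1 fell, at -0.43 ± 0.05 and -0.35 ± 0.06. In homozygous embryos 30 of these genes fell and 2 rose against wild type, where 21.1% and 23.5% of all genes did. In heterozygous against homozygous embryos 35 were higher and 0 lower, where 19.4% and 20.4% of all genes were.

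Nrf2 and oxidative stress genes rose for 10 of 27 (6 without wild-type replicate 1) and fell for 1. The superoxide dismutase gene SOD1 rose from 16.4 ± 0.476 to 25.1 ± 0.847 CPM (0.61 ± 0.06) and GCLM, a subunit of the rate-limiting enzyme of glutathione synthesis, by 0.38 ± 0.07. Catalase, CAT, was the single fall, from 28.7 ± 0.865 to 17.98 ± 1.27 CPM (-0.68 ± 0.07).

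Neuronal genes were slightly lower. Of 48 measured genes of neurons and synapses, 19 fell and 1 rose in heterozygous embryos (median -0.16). In homozygous embryos, by contrast, 31 rose and 4 fell against wild type, where 23.5% and 21.1% of all genes did. The proneural factor gene neurog1 was at 35.3, 31.9 and 32.1 CPM in heterozygous and 73.6, 70.6 and 69.1 CPM in wild-type libraries (-1.10 ± 0.06, adjusted p = 1.16e-09). The proneural genes ascl1b and ascl1a were at -0.62 ± 0.05 and -0.58 ± 0.06, and all 3 were also below wild type in homozygous embryos, at 44.7, 45.6 and 64.2 CPM against 71.1, 64.6 and 78.2. ELAVL4, an RNA-binding protein gene of young neurons, was at 102, 99.0 and 91.1 CPM in heterozygous, 119, 125 and 110.2 CPM in wild-type and 166 ± 7.88 CPM in homozygous embryos, and INSM1 (ENSDARG00000053301), a gene of differentiating neurons, likewise fell in heterozygous embryos (-0.36 ± 0.08) and was at 196 ± 9.22 CPM in homozygous against 110.5 ± 14.8 CPM in wild-type embryos. Of 31 neural progenitor and glial genes, 11 fell and 4 rose. ZIC1, GFAP and OLIG2 fell, at -0.36 ± 0.06, -0.21 ± 0.05 and -0.38 ± 0.09. Glial genes were split, as FABP7 (ENSDARG00000007697) and GLUL (ENSDARG00000099776) rose by 0.17 ± 0.04 and 0.19 ± 0.06. Among 16 Notch targets, HEY1 was at -0.38 ± 0.07 (adjusted p = 8.68e-04) and her8a at -0.26 ± 0.09 (adjusted p = 0.0347, lost in 7 settings at 0.0557 to 0.110), and the other 14 were not called. The same list had 14 that fell in homozygous embryos against wild type, where 21.1% of all genes did. Of its genes 14 were higher in heterozygous than in homozygous embryos, where 19.4% of all genes were. Among Notch pathway components, the ligand-activating ligase gene MIB1 fell by 0.41 on the log2 scale and the nuclear partner gene RBPJ (ENSDARG00000052091) was at -0.55 ± 0.08.

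Markers of several tissues and Hox genes were slightly lower and those of the skin slightly higher. Pigment cell genes included 9 that rose and 2 that fell (3 and 1 without wild-type replicate 1). Collagen genes included 8 that rose and 2 that fell (6 and 2 without wild-type replicate 1). The shares over all genes were 15.5% higher and 14.4% lower. The number of measured genes is not given here for either list. The counts therefore cannot be set against those shares, and no direction is drawn for either list. Of 47 skeletal muscle genes, whose sums are given above, ACTA1 (ENSDARG00000036371), a skeletal actin gene, was at 592, 612 and 595 CPM in heterozygous and 1082, 1219 and 1119 CPM in wild-type libraries (-0.93 ± 0.05). The myogenic factor gene MYOD1 was at -0.49 ± 0.07. Myosin heavy chain copies split, with myhz1.1 at -0.30 ± 0.04 and myhz1.3 at 0.28 ± 0.05, and reads of such near-identical copies may be divided between them. Erythroid genes fell for 15 of 30 (12 without wild-type replicate 1) and rose for 0. The haem synthesis gene CPOX fell from 58.4 ± 4.13 to 37.2 ± 0.775 CPM (-0.65 ± 0.07), and the membrane skeleton gene SPTB was at -0.30 ± 0.04. Globin genes were split. The embryonic globin genes hbae3 and hbae1.1 fell, at -0.26 ± 0.04 and -0.28 ± 0.06, while hbbe3, hbae1.3 and hbae5 were at -0.05, -0.19 and -0.05 and were not called. Retina and eye field genes fell for 13 of 31 (7 without wild-type replicate 1) and rose for 0. Hox genes, which set position along the body axis, fell for 15 of 44 and rose for 0, with HOXB8 at 42.2, 42.0 and 40.4 CPM in heterozygous and 57.6, 60.1 and 60.2 CPM in wild-type libraries (-0.51 ± 0.05).

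Notochord and cartilage matrix genes fell for 13 of 30 and rose for 3, including the aggrecan gene acana from 18.7 ± 1.99 to 10.7 ± 0.782 CPM (-0.81 ± 0.10) and COL9A2 at -0.32 ± 0.05. Genes of mural cells and crest mesenchyme fell for 11 of 31 (7 without heterozygous replicate 3 or wild-type replicate 1), with the smooth muscle actin gene acta2 at -0.92 ± 0.13. Mural cell genes were split: ABCC9 (-0.19 ± 0.05) and TAGLN (ENSDARG00000045408) (-0.95 ± 0.22) fell too. PDGFRB, RGS5 and the more abundant TAGLN (ENSDARG00000033466) were at -0.27, 0.29 and -0.03 and were not called. Epidermis and periderm genes rose for 12 of 39 and fell for 0. The keratin gene krt4 was at 3756, 3859.9 and 3842 CPM in heterozygous and 3064, 3075 and 3150.3 CPM in wild-type libraries (0.30 ± 0.04), and the junction gene JUP (ENSDARG00000070787) and anxa1b rose by 0.70 ± 0.06 and 0.61 ± 0.06. Among yolk and lipoprotein genes 7 of 23 rose (4 without heterozygous replicate 2 or wild-type replicate 2) and 3 fell, with the retinol carrier gene RBP4 from 468 ± 12.6 to 653 ± 10.7 CPM (0.48 ± 0.04), APOB at 0.30 ± 0.04 and apoa1a at -0.34 ± 0.04. Liver, gut and pancreas markers fell for 5 of 22 and rose for 0, and the copper oxidase gene CP was at -0.56 ± 0.06. Tissue markers with few calls included 2 higher and 2 lower of 23 heart genes, and 2 higher and 6 lower of 36 endothelial genes.

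Of 13 genes encoded by the mitochondrial genome, 6 fell and 1 rose, and the others were not called. MT-ND1 was the rise (0.14 ± 0.04), and MT-ND2, at 1421 CPM in heterozygous and 1427 CPM in wild-type embryos, was among those not called. MT-CYB was at 2536, 2488 and 2057 CPM in heterozygous and 3401, 3397 and 3789 CPM in wild-type libraries (-0.58 ± 0.10) and MT-CO3 at -0.33 ± 0.05. Of 59 respiratory chain genes encoded in the nucleus, 2 rose and 6 fell (2 or 3 without heterozygous replicate 1, heterozygous replicate 2 or wild-type replicate 3).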

How the data were processed

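Polyadenylated RNA of 9 pools was analysed, and pools were grouped by genotype label. Per the submitters' processing notes, the tools were featureCounts 1.6.3, HISAT2 2.1.0 and cutadapt 1.18 with build GRCz11 (danRer11), and no source used here gives the strand setting, annotation release or counting options. Reads of antisense or overlapping genes therefore cannot be told apart. The authors deposited raw counts for each gene, as whole numbers. Between 96.3% and 97.5% of counts from 1 to 19 were even, so a fragment may hold 2 counts.

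The test was the robust quasi-likelihood F test of edgeR 4.0.16 in R 4.3.3, with all 9 libraries in 1 fit, no replicate block, TMM scaling, edgeR's expression filter (20375 genes kept, 12145 dropped) and Benjamini-Hochberg adjustment. Standard errors are approximate, computed as the size of the log2 fold change over the root of F. The procedure was tested on simulated data.

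Of 1903 entries in 57 gene lists, 1369 were found by symbol, 31 through an alias and 398 once a paralogue suffix was dropped, and 105 were not found. The members and lists were chosen with earlier results of these data known. The naming rule took NPC2, NPC1, the 15 largest rises and 15 largest falls among calls that averaged 5 CPM or more over the 6 libraries, with no overlap and a symbol that is not a clone name, and up to 4 called members per list and direction by lowest adjusted p. Further members were named for their role after their values were seen. Intervals between pools cover neither clutch nor day. Results for a few genes are not reported here, and promoter sequences were not analysed here. Alternatives were DESeq2 1.42.0, limma-voom (limma 3.58.1), other scalings and filters, 6 libraries only, a replicate block, halved counts and leaving out each library.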

Additional observations from a re-analysis of the deposited data

How the results depend on the processing

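The count of genes called between heterozygous and wild-type embryos was 6079, and 5769 to 6165 under DESeq2, limma-voom, 2 other scalings, 2 other filters, the 6 libraries alone and halved counts, with 92.6% to 98.5% of the called genes kept. Leaving out single libraries gave 4835 (heterozygous replicate 2) to 6277 (homozygous replicate 3), 4940 without wild-type replicate 2, and kept at least 77.1%. No called gene changed direction in any of these settings, and the share of higher genes stayed between 49.2% and 52.3%. Of 355 called genes followed by name, 73 lost the call in 1 or more settings. Of 15 that were not called, ATF3, DHCR7, atf4a, SOCS3 (ENSDARG00000026611) and NPC2 (ENSDARG00000096979) passed in 1 to 4 settings, and 4 lay on both sides of 0 when single libraries were left out: CTSD (-0.0903 to 0.0452), SMPD1 (-0.0347 to 0.0236), srebf2 (-0.0927 to 0.0373) and XBP1 (-0.0522 to 0.0197). The cause was not tested.

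Replicate numbers did not pair heterozygous with wild-type libraries: same-numbered deviations from the group means correlated at -0.0171 to -0.0040. Over all genotypes these correlations were -0.0242 to 0.0848. Each heterozygous library correlated best with the homozygous library of its own number, at 0.0565, 0.0565 and 0.0848. Other-numbered pairs of these 2 genotypes were at -0.0764 to 0.0267. Whether heterozygous and homozygous pools were paired was not tested. With the replicate block 6133 genes were called between heterozygous and wild-type embryos. Depth limits statements on genes near 1 CPM, and 3 pools a genotype limit those on small folds.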

Other observations

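Hedgehog and Fgf pathway genes were lower more often than higher, beside background shares of 15.5% higher and 14.4% lower. Of 20 Hedgehog pathway genes, 7 fell and 3 rose (0 rose without heterozygous replicate 2, and 1 without wild-type replicate 2). The ligand gene SHH (ENSDARG00000038867) was at 9.92, 10.1 and 10.6 CPM in heterozygous and 12.9, 13.0 and 13.3 CPM in wild-type libraries (-0.36 ± 0.08, edgeR adjusted p = 0.00179), with no overlap, and the transcription factor genes GLI2 (ENSDARG00000025641) and GLI3 were at -0.34 ± 0.06 and -0.29 ± 0.06. Of 24 Fgf pathway genes, 7 fell and 1 rose (0 rose without heterozygous replicate 2 or 3 or wild-type replicate 2, and 2 without wild-type replicate 1), with the receptor gene FGFR2 at 217, 200.5 and 204 against 278, 270.1 and 255 CPM (-0.37 ± 0.05) and the feedback inhibitor gene SPRY4 at -0.26 ± 0.05. SPRY4 was at 93.6 CPM in homozygous, 58.6 in heterozygous and 70.11 in wild-type embryos, so that the 2 mutant genotypes lay on opposite sides of wild type. The paraxial mesoderm gene tbx6 was at 3.12, 3.04 and 3.00 CPM against 6.84, 6.17 and 5.99 CPM (-1.05 ± 0.14, adjusted p = 3.67e-05), and 3 of 22 tailbud and segmentation genes fell while 0 rose.

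Among 20 p53 targets 6 fell and 3 rose. The death gene bbc3 was at 2.26, 1.92 and 2.71 CPM in heterozygous, 9.32, 5.54 and 6.32 CPM in wild-type and 8.18 ± 1.08 CPM in homozygous embryos, and its level was lower in heterozygous embryos than in either other genotype (-1.61 ± 0.20 against wild type, adjusted p = 1.01e-04; -1.84 ± 0.20 against homozygous, adjusted p = 1.57e-05). Another promoter of cell death, BAX, rose by 0.37 ± 0.05. The hatching enzyme gene he1.3 was also lowest in heterozygous embryos, at 1.95, 2.43 and 2.68 CPM. Its level was 5.80, 5.54 and 6.61 CPM in wild type and 10.7 ± 2.14 CPM in homozygous embryos. The far more abundant he1.1 was at 2630 CPM in heterozygous and 2502 CPM in wild-type embryos, and he1.2 at 495 and 537 CPM. Neither he1.1 (0.07) nor he1.2 (-0.12) was called between these 2 genotypes. Among 20 iron genes, 5 fell (3 without heterozygous replicate 2) and 3 rose (1 without heterozygous replicate 1 or 2 or wild-type replicate 1). The ferritin receptor gene ncoa4, which brings ferritin to the lysosome, fell from 179.8 ± 14.9 to 116 ± 3.34 CPM (-0.63 ± 0.06).

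The genes beside npc2 were counted in the RefSeq gene order of assembly GRCz12tu, used for order only. Of the 10, 50 and 200 tested genes nearest to it, 3, 16 and 74 were called, which for the last is 37%, where 31.3% of 13367 placed tested genes were.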
